A study of Mus musculus with 6 samples.

Results

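The genes described here are 7 immediate early and activity-dependent genes of the mouse: Egr1, Fosl2, Jund, Srf, Ier5, Per1 and Sgk1. They are 7 of the 6146 named genes measured. Their probes were taken as every probe whose only gene symbol in the platform annotation is one of these names, which gave 9 of 11502, and all 9 passed the filter on missing values (11340 passed in all). Egr1 and Jund had 2 probes each and the other 5 genes had 1. The study used 6 two-colour BMAP cDNA arrays of brain total RNA from male mice aged 9 weeks. Each array set RNA of mice given naloxone, an antagonist of opioid receptors, in Cy5 against RNA of mice given saline in Cy3, both collected 10 min after injection. In 3 arrays both RNAs came from NY1DD mice, a transgenic line that models sickle cell disease, and in the other 3 from wild-type C57BL/6J mice. No array had its dyes swapped, so in a strain mean a shared dye bias cannot be told apart from naloxone, though it drops out when one strain is subtracted from the other. Whether a strain's arrays came from separate animals or from pools is not given, so the spread shown is that between arrays. C57BL/6J replicates 1 and 2 share a number of unstated meaning in their titles. The strains have no such number in common, so whatever it stands for cannot be told apart from strain in their difference. Whether NY1DD differs from the wild type in more than its transgene is not given in the sources used here.

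Immediate early genes are switched on within minutes of a stimulus, before any new protein is made, by factors already present in the cell such as SRF on the serum response element and CREB on the cAMP response element. In neurons they follow synaptic activity and are widely used as markers of it. Their products include transcription factors such as Egr1 and the AP-1 proteins, which in turn set the transcription of later genes. Per1 also belongs to the circadian clock, and both Per1 and Sgk1 are induced by glucocorticoids.

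Promoters of Srf, Per1 and Fosl2 are shown first because they held matches to response elements of these pathways. RefSeq sequences (GRCm38.p6) of the 250 bases before the start site were taken for 6 of the 7 genes, in 12 windows, of which Sgk1 had 6 and Per1 had 2. The promoter of Egr1 was left out, so whether it holds any of the motifs was not examined. Both strands were searched for 6 motifs, chosen after the windows had been looked at. These were the CArG box, which SRF binds; the full cAMP response element TGACGTCA; its partial form TGACG, which also lies within the full one; the AP-1 site TGANTCA; the E-box CACGTG, which clock factors bind; and the Egr site GCGNGGGCG. Capitals mark the matches.
Srf, chr17:46556163-46556412, minus strand: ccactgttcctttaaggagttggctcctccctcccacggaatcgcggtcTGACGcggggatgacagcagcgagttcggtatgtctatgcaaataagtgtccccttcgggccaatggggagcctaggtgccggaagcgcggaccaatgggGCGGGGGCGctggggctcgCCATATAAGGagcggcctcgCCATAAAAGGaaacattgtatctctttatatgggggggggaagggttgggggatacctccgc
Per1, upstream start, chr11:69098699-69098948, plus strand: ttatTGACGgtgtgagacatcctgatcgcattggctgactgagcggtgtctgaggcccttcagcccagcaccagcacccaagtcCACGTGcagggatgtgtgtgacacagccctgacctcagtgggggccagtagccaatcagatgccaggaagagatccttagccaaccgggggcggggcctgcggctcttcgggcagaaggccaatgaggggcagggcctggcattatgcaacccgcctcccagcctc
Per1, downstream start, chr11:69099902-69100151, plus strand: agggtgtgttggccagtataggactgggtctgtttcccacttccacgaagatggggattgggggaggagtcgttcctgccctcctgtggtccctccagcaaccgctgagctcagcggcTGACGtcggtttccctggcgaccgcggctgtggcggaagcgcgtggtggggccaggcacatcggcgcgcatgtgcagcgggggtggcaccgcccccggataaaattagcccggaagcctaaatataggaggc
Fosl2, chr5:32136222-32136471, plus strand: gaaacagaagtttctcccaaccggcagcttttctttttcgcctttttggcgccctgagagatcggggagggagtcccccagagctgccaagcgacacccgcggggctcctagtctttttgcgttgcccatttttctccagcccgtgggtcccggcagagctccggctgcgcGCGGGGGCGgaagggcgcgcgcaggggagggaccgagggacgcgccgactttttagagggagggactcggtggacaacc
The Srf window held 2 CArG boxes, CCATATAAGG from 82 and CCATAAAAGG from 62 bases before the start, beside 1 partial cAMP response element and 1 Egr site. A CArG box occurs in 1.47% of the 32851 windows of this length. Per1 held a partial cAMP response element in each window, 246 and 132 bases before the start, and an E-box in the upstream one, motifs found in 17.8% and 6.02% of all windows. The Fosl2 window had an Egr site, found in 4.7% of windows. Among the Sgk1 windows, which are not shown, 1 had a partial cAMP response element and 1 an E-box, and the windows of Ier5 and Jund held none of the 6 motifs. TGACGTCA and TGANTCA, found in 1.55% and 6.75% of all windows, occurred in none of the 12. A match describes the letters of the window and is not a binding site.

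The deposited natural log ratios were turned into log2 and each array was centred on its median. A value of 1 is thus a doubling against the array's median, likely of naloxone over saline. The numerator is not stated, and if it is saline every sign below turns. Of the probes that passed the filter, between 11104 and 11304 had a value on an array, and the SD over probes ran from 0.43 to 0.59. The brightness of the single channels was not analysed, which leaves signal over background unknown, and the number of arrays limits the precision. On NY1DD replicate 2 a probe's well in the 96-well source plates took up 27.5% of the variance, against 3.20% to 11.4% elsewhere, so well medians are given beside the values of the 7 genes. The 7 genes had been picked from a longer list with their strain means and differences known, so these are given as a description and were not tested. No feature passed limma's adjusted p of 0.05 in NY1DD, in C57BL/6J or in their difference (0 of 9685, or 0%, each), and 8.35%, 6.93% and 4.5% of features had an unadjusted limma p under 0.05 (809, 671 and 436 features).

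Egr1 encodes a zinc finger transcription factor and is a standard marker of neuronal activity. Averaged over 2 probes, its log2 ratio in NY1DD was 0.00, -0.30 and 0.70 (replicates 1, 2 and 3, the order kept throughout), and in C57BL/6J it was -0.41, -0.16 and 0.25. The strains overlapped, and each had arrays above and below 0. The NY1DD mean was 0.13 (SD 0.52, n = 3), and the C57BL/6J mean was -0.11 (SD 0.33, n = 3). Probe 113e12 read 0.10, -0.66 and 0.71 in NY1DD and -0.55, -0.12 and 0.24 in C57BL/6J. Probe 70h8 read -0.10, 0.05 and 0.69 in NY1DD and -0.27, -0.20 and 0.27 in C57BL/6J. The probes followed each other over the arrays: both were highest on NY1DD replicate 3 and next highest on C57BL/6J replicate 3, with the same sign on 4 of 6 arrays. Their Pearson correlation over the 6 arrays was 0.76, and among 917 genes with 2 probes and all values the median was 0.12, with 8.94% at or above that of Egr1. The widest gap between the probes was on NY1DD replicate 2, where the well of 113e12 had a median of -0.47 and that of 70h8 a median of 0.01. After subtraction of those medians the probes read -0.19 and 0.05 there. Egr1 thus varied from array to array within each strain by more than its strains differed.

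AP-1 is a dimer of a Fos and a Jun protein, and a gene of each kind was measured. Fosl2, which encodes the Fos family protein Fra-2, had log2 ratios of 0.35, 0.50 and 0.29 in NY1DD, against 0.16, -0.19 and -0.20 in C57BL/6J. All 3 NY1DD arrays were above 0, as for 13.6% of 9311 features with all values, and above every C57BL/6J array, with a gap of 0.14 between the groups. The NY1DD mean of 0.38 (SD 0.11, n = 3) corresponds to 1.30-fold, and the C57BL/6J mean was -0.08 (SD 0.20, n = 3). Its well medians were 0.04, 0.09 and 0.09 in NY1DD and 0.00, -0.04 and -0.18 in C57BL/6J. After their subtraction the difference of 0.46 became 0.31, and the strains still did not overlap. With the median of each source plate subtracted, a choice made after the data were seen, the lowest NY1DD value was 0.17 and the highest C57BL/6J value 0.17, and the groups overlapped.

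Jund encodes JunD, a Jun family protein known for steadier expression than its relatives. Its 2 probes read in opposite directions in NY1DD. Probe 75c7 was at -0.16, -0.46 and -0.41 on the NY1DD arrays and probe 8h8 at 0.10, 0.44 and 0.30. In C57BL/6J, probe 75c7 was at 0.30, -0.70 and -0.59, and probe 8h8 at -0.66 and -0.08 on replicates 1 and 3, with no value on replicate 2. The 2 probes had the same sign on 1 of the 5 arrays that measured both. The well medians of 75c7 in NY1DD were -0.09, 0.14 and -0.17, and those of 8h8 were -0.08, 0.01 and -0.02. After their subtraction 75c7 read -0.08, -0.60 and -0.24 and 8h8 read 0.18, 0.44 and 0.32, still on opposite sides of 0. Of 947 genes with 2 probes and full values in NY1DD, 36 (3.80%) had probes on opposite sides of 0 on all 3 arrays. The mean distance between the Jund probes was 0.67, against a median of 0.42 over 1030 genes with 2 probes, of which 19.9% were at least as far apart. Averaging the probes gave -0.03, -0.01 and -0.05 in NY1DD (mean -0.03, SD 0.02, n = 3) and -0.18, -0.70 and -0.34 in C57BL/6J (mean -0.40, SD 0.26, n = 3), where the second value rests on 75c7 alone and the mean was -0.26 without that array. The narrow NY1DD spread is that of an average over opposed probes, and the gap of 0.13 between the averaged strains does not hold for both: the strain difference was -0.01 by 75c7 and 0.65 by 8h8. No direction can be given for Jund as a gene.

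**Figure D1:**
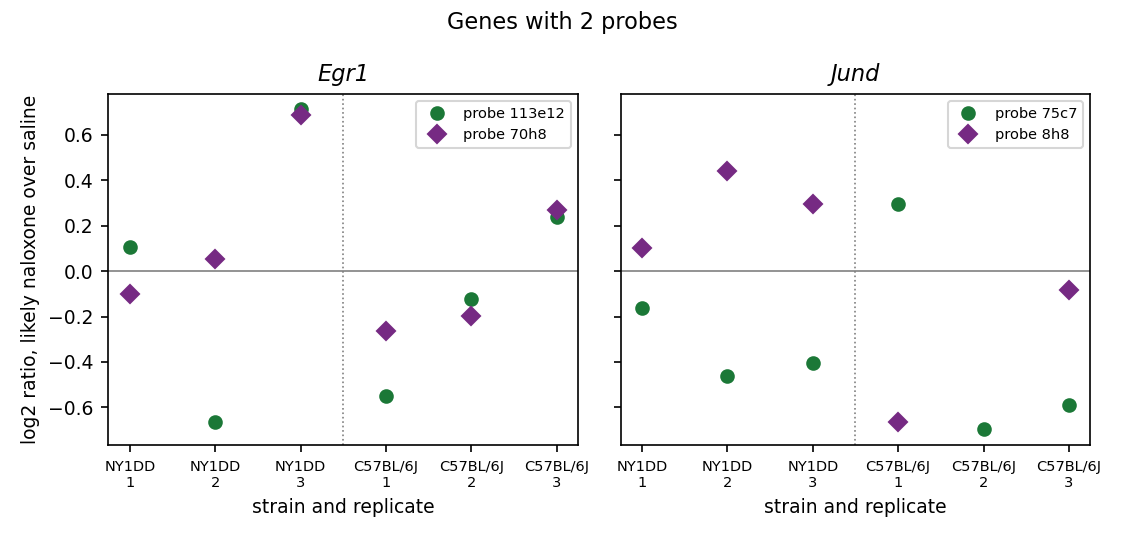
Log2 ratio (vertical axis, likely naloxone over saline) of each probe of Egr1 (left) and Jund (right) on the 6 arrays (horizontal axis); each point is 1 probe on 1 array and the dotted line parts the strains. The Egr1 probes lie close together except on NY1DD replicate 2, while the Jund probes lie on opposite sides of 0 on every NY1DD array.

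Srf encodes serum response factor, which drives many immediate early genes through CArG boxes of the kind its own promoter window holds. Its log2 ratio was 0.35, 0.13 and -0.14 in NY1DD, against 0.52, 0.45 and 0.38 in C57BL/6J. Every C57BL/6J array was above 0, as for 14.2% of features, and above every NY1DD array, by a gap of only 0.04. The C57BL/6J mean of 0.45 (SD 0.07, n = 3) corresponds to 1.37-fold, and the NY1DD mean was 0.11 (SD 0.24, n = 3). Srf was the only one of the 7 genes with a lower mean in NY1DD than in C57BL/6J. Its well medians in C57BL/6J were 0.12, 0.12 and 0.16, and in NY1DD they were 0.16, -0.33 and 0.25. After their subtraction the C57BL/6J mean was 0.32, NY1DD ran from -0.39 to 0.46, and the strains overlapped.

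Ier5 encodes an immediate early protein that is induced by growth signals and acts on heat shock factor. Its log2 ratio was 1.29, -0.07 and 1.16 in NY1DD and -0.32, 0.07 and -0.998 in C57BL/6J. The NY1DD replicates 1 and 3 were the highest values of any of the 7 genes, and replicate 2 fell within the C57BL/6J range. The NY1DD mean was 0.79 (SD 0.75, n = 3), or 1.73-fold, and the C57BL/6J mean was -0.41 (SD 0.54, n = 3). That C57BL/6J mean was -0.12 without replicate 3 and -0.66 without replicate 2. The difference of 1.21 (SE 0.43 from limma's model) was the widest of the 7, with 0.661% of all features further above 0. It ran from 0.91 to 1.64 when each array was left out in turn. With NY1DD replicate 2 left out, whose values followed plate position most, the NY1DD mean was 1.22 and the strains no longer overlapped. The well of Ier5 had a median of 0.11 on that array, so subtraction left its value low, at -0.18.

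Per1 encodes a repressor of the circadian clock that is also induced acutely by light, cAMP and glucocorticoids. In C57BL/6J its log2 ratio was -0.74, -0.996 and -1.24, and in NY1DD it was -0.26, 0.15 and -0.28. The C57BL/6J arrays were all below 0, as for 17% of features, and below every NY1DD array, with a gap of 0.46, the widest of the 7 genes. The C57BL/6J mean of -0.99 (SD 0.25, n = 3) corresponds to a ratio 1.99-fold lower than the array median, and 1.30% of all features had a lower one. The NY1DD mean was -0.13 (SD 0.25, n = 3), or -0.07, -0.27 and -0.06 without replicate 1, 2 or 3, and the difference was 0.86 (SE 0.23 from limma's model), or 1.81-fold. Of the 7 genes, Per1 alone was past 1.5-fold on all 3 arrays of a strain. That held, below 0 in C57BL/6J, for 85 features (0.896% of 9489 with all 3 values), of which 67 had no gene symbol. The same rule was met by 0.0948% of features above 0 in C57BL/6J, and by 0.226% above and 0.397% below 0 in NY1DD. As a group those features were also low in NY1DD (median of their NY1DD means -0.44), and 2 of the 85 had a higher NY1DD mean than Per1. Per1 was picked with both strain means known, so its place among the 85 restates those values. Per1 rests on 1 probe. Its well medians lay between -0.10 and -0.02 in C57BL/6J, and after their subtraction the C57BL/6J mean was -0.95 and the strains still did not overlap.

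Sgk1 encodes a serum- and glucocorticoid-induced kinase that acts on ion channels and transporters and is induced in oligodendrocytes by stress. Its log2 ratio was 0.27, 0.29 and 0.32 in NY1DD, all above 0, against 0.43, 0.23 and -0.35 in C57BL/6J. The NY1DD arrays lay close together and inside the C57BL/6J range. Their mean was 0.29 (SD 0.02, n = 3), or 1.22-fold, and that of C57BL/6J was 0.10 (SD 0.40, n = 3). Of all features, 0.785% had a smaller SD over the NY1DD arrays. The Sgk1 probe shares plate column 12 with Egr1 probe 113e12, and its well medians in NY1DD were -0.11, -0.37 and -0.07. Subtracting them gave 0.38, 0.65 and 0.38, which left replicate 2 apart from the others and moved the NY1DD mean to 0.47. In C57BL/6J the sign of the mean turned to -0.06 without replicate 1.

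**Figure D2:**
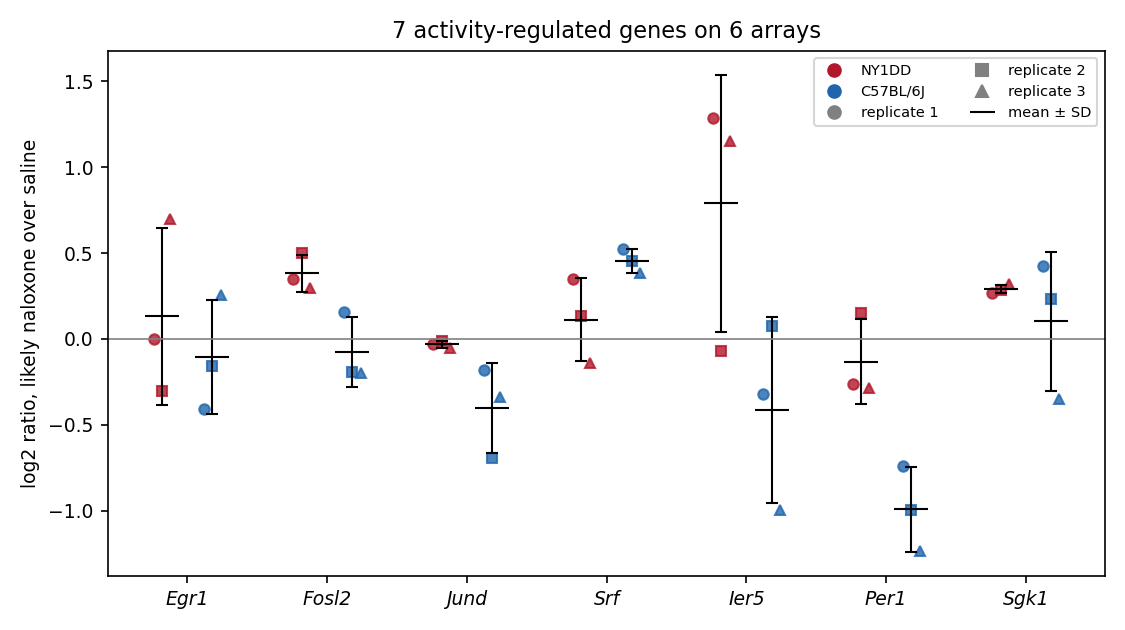
Log2 ratio (vertical axis, likely naloxone over saline) of the 7 genes (horizontal axis) on each array; colours give the strain, symbols the replicate, and black bars the mean ± SD of 3 arrays. Per1 is lowest in C57BL/6J with no overlap between strains, Ier5 is highest in NY1DD with replicate 2 near 0, and Egr1 spans 0 in both strains.

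Set in order of their NY1DD means, the genes ran from Ier5 over Fosl2, Sgk1, Egr1, Srf and Jund to Per1. In C57BL/6J the order was Srf, Sgk1, Fosl2, Egr1, Jund, Ier5 and Per1. The array ranges of every neighbouring pair in both orders overlapped, so no neighbours differed beyond their spread. Per1 was last in both. In NY1DD, 5 of the 7 means were above 0 (47.5% of all features), and in C57BL/6J 5 were below 0 (50.1%). The difference was above 0 for 6 genes (48.3% of features) and below 0 for Srf. The strains did not overlap for 4 genes (9.41% of 9175 features), with NY1DD higher for Fosl2, Per1 and Jund (5.21%) and lower for Srf (4.2%). These counts restate the values the genes were picked on, and that of Jund holds for the average of its probes. Per1 and Jund kept their gap with the arrays left uncentred, scaled to one spread, corrected for well or plate, or without NY1DD replicate 2; Fosl2 lost it with the plate correction, and Srf with either position correction.

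**Figure D3:**
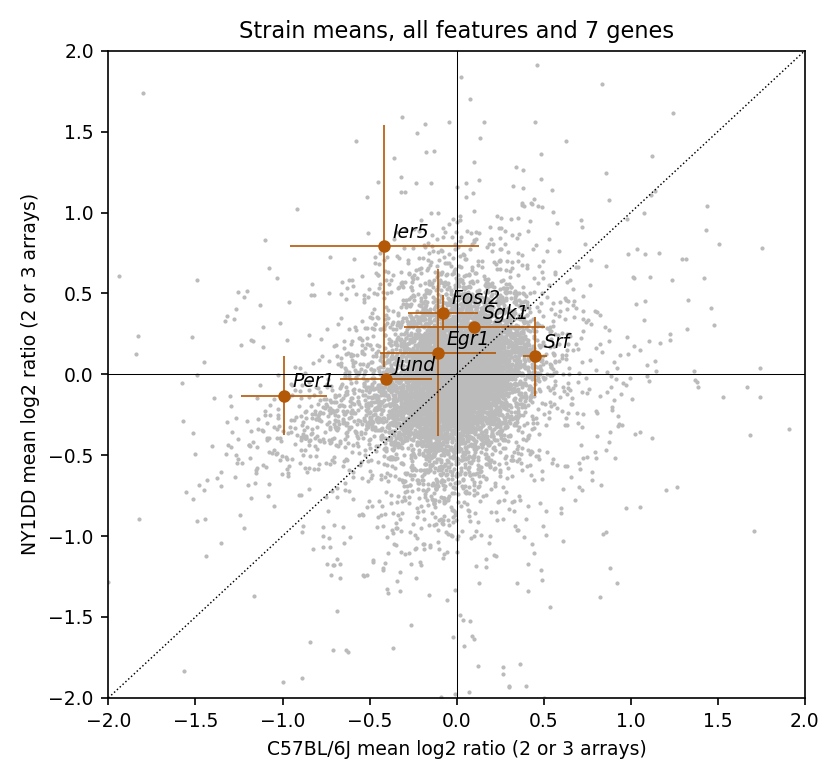
Mean log2 ratio in NY1DD (vertical axis) against C57BL/6J (horizontal axis) for all features (grey; 20 lie outside the plotted range) and the 7 genes (orange, with the SD over 3 arrays of each strain); the dotted line marks equal means. Per1 lies far to the left near 0 on the vertical axis, Ier5 lies above the line, and Srf alone of the 7 lies below it.

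Over the 6 arrays, the 7 genes did not share one pattern. Of their 21 pairs, 12 had a Pearson correlation above 0 and 9 below, with a median of 0.30. All arrays share the centring and each pair of genes shares its RNA and slides, so these are descriptions. The correlations also include the strain differences, which were known when the 7 genes were picked. Of these differences only that of Srf was below 0, so the signs in part restate the picking. The closest pair was Fosl2 and Per1 (r = 0.97, n = 6 arrays), both highest on NY1DD replicate 2 and lowest on C57BL/6J replicate 3. Fosl2 and Jund came next (0.88), then Per1 and Jund (0.77), both with the average of the opposed Jund probes, whose lowest value is 75c7 alone. Srf correlated negatively with all 6 others, most with Egr1 (-0.69) and least with Sgk1 (-0.16). Among 5857 genes measured on all arrays, Rgcc, a regulator of the cell cycle, was the most like both Fosl2 (r = 0.99) and Per1 (0.99). It read 0.28, 0.39 and 0.24 in NY1DD and 0.06, -0.17 and -0.27 in C57BL/6J. That was close to Fosl2 in size but not to Per1 (root mean square difference 0.08 and 0.69). The second for each was Mthfs, a folate enzyme, for Fosl2 (0.99) and Dhrs7b for Per1 (0.98). Ier5 was followed most closely by Slco1a4, a transporter of brain endothelium (0.98), and Ubxn1 (0.98). A high r does not mean values of like size or sign: Mthfs and Ubxn1 were below 0 on all 6 arrays. For Egr1 the closest were Gm42067 (0.99) and Tnfsf9, a cytokine of the TNF family (0.96). Sgk1 was closest to Clk2, a kinase of splicing factors (0.99), and Vps51, a membrane trafficking protein (0.99). Srf was closest to Srpk3, a kinase of SR proteins (0.98), and Ube2h, a ubiquitin-conjugating enzyme (0.97), and Jund to Glce, a heparan sulfate epimerase (0.97), and Mavs, an antiviral signalling protein (0.96). Between 18 and 45 of the 5857 genes had r above 0.9 with each of the 7, and the values for Jund again rest on its probe average. With 6 arrays and 5857 genes compared, unrelated genes also reach such correlations. How many would do so was not estimated, so the closest genes are not shown to be regulated together with the 7.

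The other immediate early genes lay on both sides of 0 in every comparison. Of a list of 56 such genes, 23 were measured, and 16 of these are not among the 7. Their NY1DD means were above 0 for 7 and below for 9 (median -0.05, against -0.02 over all features), and their C57BL/6J means above 0 for 6 and below for 10 (median -0.06, against 0.00). NY1DD minus C57BL/6J was above 0 for 6 and below for 10, with a median of -0.05 (all features -0.01). The 7 genes, picked for their values, had a median difference of 0.37. None of the 16 passed limma's adjusted p in any comparison, and 1 had an unadjusted p under 0.05: Errfi1, an inhibitor of the EGF receptor that is induced by glucocorticoids. Errfi1 read -0.46, -1.56 and -0.09 in NY1DD (mean -0.70, SE 0.28, limma adjusted p = 0.588) and -0.21, -0.18 and 0.37 in C57BL/6J. Its NY1DD mean rested largely on replicate 2 and was -0.27 without it (unadjusted limma p 0.244). After subtraction of well medians the NY1DD mean was -0.60 (unadjusted limma p 0.0142). Of 21 genes set by name, 5 were measured, all of them in the lists that follow. Fos, Fosb, Jun, Junb, Arc, Egr2, Egr3, Nr4a1 and Homer1 had no measured feature under their symbol alone and were not analysed here.

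**Figure D4:**
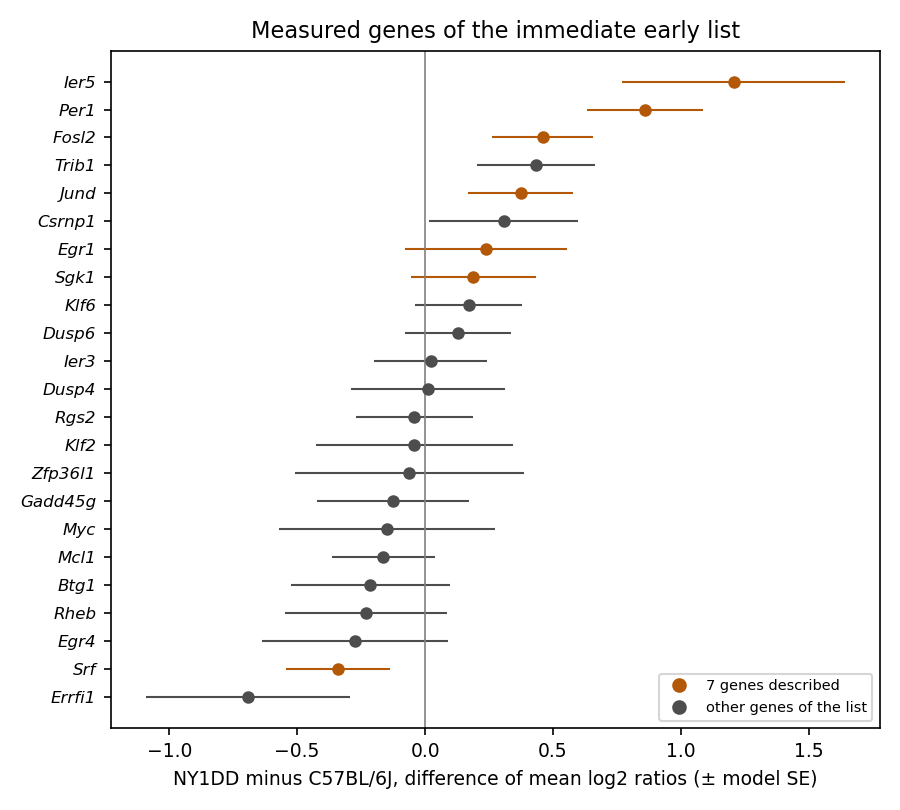
Difference of mean log2 ratios, NY1DD minus C57BL/6J (horizontal axis, bars are limma's SE), for the 23 measured genes of the immediate early list (vertical axis); the 7 genes described are orange and the other 16 grey. Ier5 and Per1 lie furthest above 0, while the 16 other genes lie on both sides, from -0.69 to 0.43.

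Upstream regulators of these genes also lay on both sides of 0. Among 18 measured regulators of the SRF, CREB and MEF2 pathways other than Srf, 11 were above 0 in NY1DD (median 0.04), 7 in C57BL/6J (median -0.09), and 9 in the difference (median 0.00). None passed limma's adjusted p in any comparison, and 1 had an unadjusted p under 0.05. This was Crebbp, the coactivator of CREB, in C57BL/6J, with -1.32, -0.07 and -1.09 (mean -0.83, SE 0.26, limma adjusted p = 0.443). Without C57BL/6J replicate 1 or 3 no gene of the list had an unadjusted p under 0.05 in C57BL/6J. Creb1 itself had a mean of 0.06 (SE 0.39) in NY1DD and 0.54 (SE 0.39) in C57BL/6J, where 1 array at 1.75 set the mean. Nab2, a corepressor that binds Egr proteins, had -0.34 and -0.40 on NY1DD replicates 2 and 3, with no value on replicate 1, and 0.30, 0.36 and -0.05 in C57BL/6J. Its NY1DD mean was -0.37, or -0.18 after subtraction of well medians. The difference was -0.57 (SE 0.24, limma adjusted p = 0.969). Of 5 measured AP-1 and related factors other than Fosl2 and Jund, 2 were above 0 in NY1DD (median -0.04), 2 in C57BL/6J (median -0.05) and 1 in the difference (median -0.04). The last was Maf, named after its values were seen, with a difference of 1.63 (SE 0.87, limma adjusted p = 0.969), wider than that of Ier5. Maf had 0.47 and 0.72 on NY1DD replicates 2 and 3 and 0.29, -2.84 and -0.55 in C57BL/6J, where replicate 2 lay far below the others. None of the 5 passed, and 1 had an unadjusted p under 0.05, the small Maf protein gene Mafg in NY1DD (mean -0.30, SE 0.12, limma adjusted p = 0.588). Mafg did not keep that unadjusted p when any one of the arrays was left out.

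Clock genes other than Per1 were examined because Per1 belongs to the same loop. Of 9 measured, 6 were above 0 in NY1DD (median 0.11), 4 in C57BL/6J (median 0.00) and 5 in the difference (median 0.10). None passed limma's adjusted p in any comparison, and the unadjusted p was under 0.05 for Tef and Bhlhe41 in NY1DD and in the difference. Tef, an output factor of the clock, read 0.23, 0.98 and 0.80 in NY1DD and -0.06, 0.03 and -0.31 in C57BL/6J. Its NY1DD arrays all lay above the C57BL/6J arrays, by a difference of 0.78 (SE 0.25, limma adjusted p = 0.969). Bhlhe41, a repressor within the clock, read 0.82, 0.38 and 0.50 against 0.07, -0.26 and 0.06, a difference of 0.61 (SE 0.21, limma adjusted p = 0.969). In both genes the NY1DD arrays stood above 0, whereas in Per1 the C57BL/6J arrays stood below it. Clock, the activator of the loop, had -0.10 (SE 0.14) in NY1DD and -0.01 (SE 0.14) in C57BL/6J over 3 probes.

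Glucocorticoid-responsive genes were examined because Per1 and Sgk1 are among them. Of 9 others measured, 2 were above 0 in NY1DD (median -0.13, against -0.02 over all features), 5 in C57BL/6J (median 0.02), and 1 in the difference (median -0.16). None passed limma's adjusted p, and 2 had an unadjusted p under 0.05 in NY1DD, Errfi1 and Ddit4, an inhibitor of mTOR signalling (mean -0.44, SE 0.19, limma adjusted p = 0.588). After subtraction of well medians the Ddit4 mean was -0.23 and its unadjusted limma p 0.163. Without NY1DD replicate 2 they were -0.59 and 0.0306. Tsc22d3, a classical glucocorticoid target, had -0.47, -0.32 and 0.07 in NY1DD and 0.05, 0.08 and -0.15 in C57BL/6J, and its NY1DD mean of -0.24 became -0.12 after subtraction of well medians. Nedd4l, a ubiquitin ligase that Sgk1 phosphorylates, had means of 0.16 (SE 0.15) and 0.13 (SE 0.15).

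Markers of brain cell types are given because bulk tissue cannot tell fewer cells of a type apart from less RNA per cell. The median log2 ratio of 15 neuron markers ran from 0.03 to 0.21 over the NY1DD arrays and from -0.08 to 0.10 over the C57BL/6J arrays. That of 11 oligodendrocyte markers ran from 0.01 to 0.12 and from 0.01 to 0.16, of 11 endothelial and mural markers from 0.04 to 0.11 and from 0.00 to 0.24, and of 5 microglia markers from -0.11 to 0.14 and from -0.08 to -0.01. The 10 astrocyte markers had medians from -0.12 to -0.03 in NY1DD and from 0.01 to 0.04 in C57BL/6J, the only one of these lists whose strains did not overlap, with NY1DD lower. Their differences were mixed, with 4 above and 6 below 0, from -0.29 to 0.39 (median -0.07). Among single features, 9.41% had strains that did not overlap. Choroid plexus and ependyma markers (5 measured) ran from -0.16 to 0.01 and from -0.12 to 0.05, and 1 blood marker was measured, from -0.66 to 0.80 and from -0.81 to 0.88. None of these markers passed limma's adjusted p in any comparison. An unadjusted limma p under 0.05 was found in NY1DD for Syn1 (1.06), Laptm5 (0.54), Folr1 (0.57), Ly6c1 (0.54) and Slco1a4 (0.47) above 0 and for Tmem119 (-0.54) below. In C57BL/6J it was found for Snap25 (0.64), Folr1 (0.64) and Ermn (0.36) above 0 and for Gad1 (-0.95), Dynlrb2 (-0.81) and C1qa (-0.44) below, and in the difference for Dynlrb2 (0.73). These were named out of all measured markers of the 7 lists. Over all features, such a p was found for 8.35% in NY1DD, 6.93% in C57BL/6J and 4.5% in the difference. After subtraction of well medians the unadjusted limma p in C57BL/6J was 0.0733 for Folr1 and 0.0714 for Ermn. Without NY1DD replicate 2 the unadjusted limma p was 0.103 for Tmem119 in NY1DD and 0.055 for C1qa in C57BL/6J. For Dynlrb2 in the difference it was 0.0815 without that array. Slco1a4 is also the gene most like Ier5 over the arrays, with a C57BL/6J mean of 0.06 and a limma adjusted p of 0.969 for the difference. The 11 endothelial and mural markers were mixed. In NY1DD 8 were above and 3 below 0, from -0.52 to 0.54. In the difference 5 were above and 6 below 0, from -1.25 to 0.49 (median -0.09). The part of the cell type markers in the values of the 7 genes was not tested. The ratios hold no expression levels, so the tissue could not be checked by the presence of its markers.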

How the data were processed

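The authors deposited natural log (ln) ratios of the 2 channels. Software, background correction and normalisation were not stated in the labels or the file. The base was taken from the values: after back-transformation, 403 of 67941 were whole multiples of 0.1 (tolerance 1e-05) under base e, while base 2 gave 1 and base 10 gave 2. Naloxone over saline is the likely direction, since the design text puts naloxone in Cy5. Control spots (30 of 11532) were dropped, ratios turned into log2, values at the lower limit (293, 0 of them of the 7 genes) set to missing, probes kept with at least 2 arrays of each strain, arrays centred on their median, and probes of 1 symbol averaged. This gave 9685 features. One symbol was listed for 7906 of the 11502 probes, several for 297 and none for 3299, and gene numbers matched RefSeq (GRCm38.p6) for 7894. Depth has no meaning for ratios, and the number of arrays limits precision.

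A model with 1 mean for each strain was fitted across all features by limma 3.58.1 in R 4.3.3 (two-sided, Benjamini-Hochberg, threshold 0.05), checked on simulated data. SD is over arrays and SE is the model's. The 7 genes and all lists were chosen with earlier results of these data known. Other genes are named where their unadjusted p was under 0.05 (at most 4 for each list and comparison), where they were among 21 names, or as the 2 most correlated with one of the 7. The treatment of the lower limit, the motifs and the promoters shown, the comparison with other genes of 2 probes, the table of overlap by setting, the plate correction, and the use of 1 probe set when an array was left out were all chosen after values or sequences had been seen. Alternatives changed the lower limit, filter, centring, array spread, position correction, probe averaging, the arrays used and the replicate block.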

Additional observations from a re-analysis of the deposited data

Results flagged for a closer look

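Jund probe 8h8 drew attention because all of its NY1DD arrays lay above 0 and both of its C57BL/6J arrays with a value lay below 0, a difference of 0.65 between the strain means. The difference was not tested, and probe 75c7 of the same gene had a difference of -0.01.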

How the results depend on the processing

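The count of features past limma's adjusted p was 0 in NY1DD, in C57BL/6J and in their difference under every alternative run, leaving out each array included, while the count at an unadjusted p under 0.05 ran from 614 to 1119, from 489 to 859 and from 297 to 589. No sign of pairing by replicate number was seen (correlations of same-numbered arrays, as deviations from the strain means, -0.0704, 0.0566 and 0.0203). Low correlations cannot show that same-numbered arrays were handled apart, and the sample titles do not say. With a replicate block 0 features passed in the difference, with 498 at an unadjusted p under 0.05. Of 307 strain means and differences of the 7 genes under an alternative, 295 moved by less than 1 SD between arrays, 12 moved by 1 SD or more, and 10 changed sign. The 295 were in part fixed in advance. Leaving out 1 of 3 arrays cannot move a strain mean by 1 SD, and none of the 12 came from it. The mean of the strain that kept all its arrays, and the difference under the replicate block, stay as they were. Those that changed sign were Jund in NY1DD (0.00 with the well correction, 0.28 by probe 8h8 alone) and in the difference (-0.01 by probe 75c7 alone and also with values required on all 6 arrays, which drops probe 8h8), Srf in NY1DD without replicate 1 (-0.0048), Egr1 without NY1DD replicate 3 (-0.15 in NY1DD, -0.05 in the difference) or without C57BL/6J replicate 1 (0.05 in C57BL/6J), and Sgk1 without C57BL/6J replicate 1 (-0.06 in C57BL/6J) or replicate 3 (-0.04 in the difference). The signs of Fosl2, Ier5 and Per1 held under all alternatives, with a Per1 difference from 0.72 to 0.98 when each array was left out. Beyond the probe choice for Jund and the dropped arrays, the cause was not tested. In the 5 pathway lists, the number of other genes with an unadjusted p under 0.05 ran from 0 to 2 in the main analysis and from 0 to 3 under the alternatives.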
